A study of Homo sapiens with 3 samples.

Results

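The regions described here are the broad H3K4me3 peaks of ALL-SIL, the called H3K4me3 peaks of at least 4000 bp. They were selected on their measured length, without merging neighbours, from the peaks on chromosomes 1 to 22, X and Y. The rule gave 300 peaks of the 11084 H3K4me3 peaks on those chromosomes. ALL-SIL is a long-established human leukaemia line; it was derived from a T-cell acute lymphoblastic leukaemia (T-ALL) and is known for a rearrangement of TLX1. The series holds 3 ChIP-seq samples of this line with no treatment named in the labels: an H3K4me1 pull-down, an H3K4me3 pull-down and the input DNA that served as control for both, 1 library each. There is thus no replicate error, no test and no p-value below, and each peak is a position called in 1 library of 1 cell line. H3K4me1 was measured in another library than the one that chose the peaks, although both marks share the same input. The comparison peaks are the 5287 H3K4me3 peaks of 1000 to 2000 bp, called 1 to 2 kb peaks below. Intervals in brackets are exact (Clopper-Pearson) 95% intervals for shares and order-statistic intervals for medians, and they cover counting error only.

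H3K4me3 is trimethylation of lysine 4 of histone H3, a mark of active promoters that is laid down around transcription start sites by SET1 and MLL methyltransferase complexes recruited in large part to unmethylated CpG-rich DNA. Most promoters carry a narrow domain just downstream of the start, while in many cell types a small set of promoters, often of genes that define the cell's identity, carries a domain that spreads far into the gene. H3K4me1, the monomethylated form, is found at enhancers and on the shoulders of promoters, where the trimethylated form gives way to it.

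The DNA before the starts of genes under broad peaks ranged from very rich to very poor in CpG. The stretches shown here are the 250 bases before a listed start, from RefSeq (GRCh38.p14), 5′ to 3′ on the gene's strand, with every CG dinucleotide in capitals. Each lies wholly inside a broad peak. PTP4A2, which encodes a protein tyrosine phosphatase, shows the CpG-rich end, with 32 CG at chr1:31938369-31938618 on the minus strand. BCL11B, a zinc finger transcription factor gene needed for T cell commitment, has 17 CG at chr14:99272198-99272447 on the minus strand. MIR142HG, host of the blood cell microRNA miR-142, has 14 CG at chr17:58332521-58332770 on the minus strand. CD3D, which encodes the delta chain of the CD3 complex of the T cell receptor, has 4 CG at chr11:118342706-118342955 on the minus strand. IKZF2, which encodes the transcription factor Helios, has 4 CG at chr2:213152457-213152706 on the minus strand.
PTP4A2: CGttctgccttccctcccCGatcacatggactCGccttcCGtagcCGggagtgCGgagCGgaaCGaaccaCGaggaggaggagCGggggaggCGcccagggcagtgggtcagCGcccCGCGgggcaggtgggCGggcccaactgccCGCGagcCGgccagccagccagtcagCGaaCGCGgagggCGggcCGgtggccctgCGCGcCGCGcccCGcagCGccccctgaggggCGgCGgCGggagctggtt
BCL11B: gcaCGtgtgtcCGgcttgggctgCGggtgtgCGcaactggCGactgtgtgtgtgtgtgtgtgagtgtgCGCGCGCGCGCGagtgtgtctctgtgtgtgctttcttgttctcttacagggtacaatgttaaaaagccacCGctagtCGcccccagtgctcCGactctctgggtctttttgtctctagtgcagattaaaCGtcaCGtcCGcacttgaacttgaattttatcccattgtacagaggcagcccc
MIR142HG: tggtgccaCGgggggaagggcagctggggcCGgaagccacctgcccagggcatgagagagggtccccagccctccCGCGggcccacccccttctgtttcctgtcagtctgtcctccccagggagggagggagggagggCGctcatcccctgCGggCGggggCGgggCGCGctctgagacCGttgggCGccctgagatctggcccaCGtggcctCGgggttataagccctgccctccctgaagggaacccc
CD3D: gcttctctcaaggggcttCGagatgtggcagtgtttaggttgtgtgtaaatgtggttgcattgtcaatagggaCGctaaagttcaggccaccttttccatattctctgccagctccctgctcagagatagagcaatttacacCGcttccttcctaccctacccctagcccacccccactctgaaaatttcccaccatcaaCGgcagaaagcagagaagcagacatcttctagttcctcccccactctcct
IKZF2: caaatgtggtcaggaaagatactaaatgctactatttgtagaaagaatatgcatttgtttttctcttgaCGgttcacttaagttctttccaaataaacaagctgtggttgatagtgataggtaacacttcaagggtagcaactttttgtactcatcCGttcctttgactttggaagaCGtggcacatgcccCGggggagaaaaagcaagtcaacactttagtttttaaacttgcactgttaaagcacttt

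Broad peaks held 9 microRNA genes, in 8 of the 300 peaks. MIR142 lay inside the 11.3 kb peak of MIR142HG together with MIR4736. Both arms of miR-142, a microRNA of blood cells, are shown with the seed (bases 2 to 8) in capitals, from RefSeq (GRCh38.p14). The 3p arm lies at chr17:58331245-58331267 and the 5p arm at chr17:58331283-58331303, both on the minus strand, downstream of the MIR142HG start printed above.
hsa-miR-142-3p: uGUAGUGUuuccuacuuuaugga
hsa-miR-142-5p: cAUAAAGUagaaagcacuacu
The other microRNA genes included MIR3610 in the RAD21 peak, MIR6090 in the ETS1 peak, MIR3175 in the CHD2 peak and MIR3153 in the CKS2 peak. A microRNA gene stood in 2.67% of broad peaks (1.16% to 5.19%) and in 0.794% of 1 to 2 kb peaks (0.573% to 1.07%), and a longer peak has more room for one. In the 2361 peaks longer than 2000 bp and shorter than 4000 bp the share was 2.20% (1.65% to 2.88%), close to that of broad peaks.

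The broad peaks had a median length of 4.79 kb, with quartiles of 4.30 and 5.90 kb, and 36 of them reached 8 kb. The longest covered 23.8 kb of the T cell receptor gamma locus, over TRG-AS1 and several TRGV segments (chr7:38330486-38354262). The next, of 17.9 kb, lay over an end of MYO18B, an unconventional myosin gene best known from muscle whose start is not listed in the reference tables used here (chr22:25740354-25758261). BCL11B followed with 13.7 kb (chr14:99260888-99274632). The peak over TLX1, a homeobox oncogene, and its neighbour TLX1NB measured 13.1 kb (chr10:101129245-101142355). A peak of 12.8 kb covered CDKN1B, which encodes the cyclin-dependent kinase inhibitor p27, with APOLD1 and GPR19. These 5 longest peaks thus cover a T cell receptor locus, a muscle myosin gene, a lineage factor, an oncogene and a cell cycle inhibitor.

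The next peaks by length held further immune loci beside genes of general function. A second peak of the gamma locus, over TRGC2 and TRGJ2, measured 12.8 kb, and a peak over the delta joining segments of the alpha and delta receptor locus measured 12.4 kb. LINC00861, a long non-coding RNA gene, had 12.2 kb. RAD21, a subunit of cohesin, had 11.8 kb, KHDRBS1, an RNA-binding protein known as SAM68, had 11.3 kb, MIR142HG had 11.3 kb and PTP4A2 had 10.8 kb. CDK6, a kinase that drives entry into the cell cycle, had 10.3 kb, as did EVL, an actin regulator, and PTGER4, a receptor of prostaglandin E2. ARID2, a subunit of a SWI/SNF chromatin remodelling complex, had 10.0 kb. ZNF217 with 9.96 kb, PGGHG with 9.88 kb, the interferon-induced pair IFITM1 and IFITM3 with 9.85 kb and IKZF2 with 9.11 kb completed the 20 longest.

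**Figure D1:**
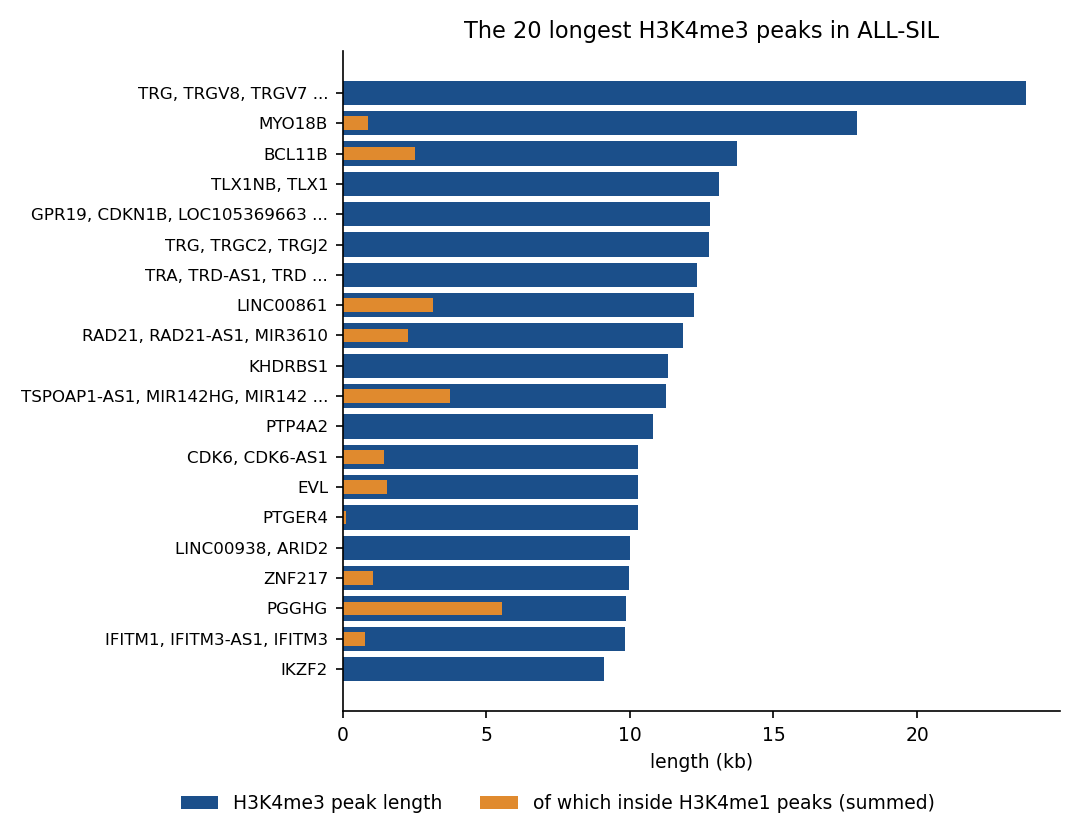
Length of the 20 longest H3K4me3 peaks in kb (dark bars), labelled with the first genes they touch, and the length of each that lay inside H3K4me1 peaks, summed (orange). The gamma receptor peak stands out at 23.8 kb, and H3K4me1 covered more than a small share in few of them, PGGHG with 56.1% being the highest.

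The limit of 4000 bp cut through a continuous range of lengths. The 3 peaks just inside were those of SERBP1 (4003 bp), of ANG and RNASE4 (4011 bp), and of NPAT and ATM (4015 bp). The 3 just outside were those of H3-3A (3989 bp), IGF2BP3 (3992 bp) and TNRC6C (3996 bp). A further 2361 peaks lay between the comparison lengths and 4000 bp.

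Broad and 1 to 2 kb peaks had overlapping ranges of height, which came from the library that chose the peaks and is given as a description. The pileup, the authors' mean coverage by extended fragments over a peak, had a median of 13.8 in broad peaks and 13.4 in 1 to 2 kb peaks. The fold over the local background had medians of 4.77 and 4.49. Among broad peaks, length and pileup had a Spearman rho of -0.12 over the 300 peaks, which share 1 library, and the value is given as a description. The highest pileups stood at LMO4 (28.4), NFILZ (28.2), HNRNPL (24.2), ITGAL (24.0), MIR663AHG (23.9) and TOX (22.8). MIR663AHG also had the highest expected background of all broad peaks, at 6.12. Low pileups stood at IL2RG (5.50), HCFC1 (6.39), STAG2 (6.82), and DDX3X (7.31), all 4 on chromosome X. The median background, pileup divided by fold, was 2.22 over the 7 broad peaks of chromosome X and 4.45 over the 15 of chromosome 8, against 2.82 over all 300. Over the 10 broad peaks of chromosome 19, where NFILZ and HNRNPL lie, it was 3.36. A pileup is therefore not comparable between those chromosomes and the others.

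Most broad peaks lay over the start of a gene. A listed start of a protein-coding or lncRNA gene fell inside 249 of the 300 peaks, or 83.0% (78.3% to 87.1%), against 76.5% (75.3% to 77.6%) of the 1 to 2 kb peaks. Here the 5′ end of the span of a gene with a listed start counted as one too. The share was 82.2% (80.6% to 83.7%) in the 2361 peaks between those lengths and 67.6% over all H3K4me3 peaks. A longer peak has more room for a start. Another 30 broad peaks covered an end of a gene for which the tables list no start, among them MYO18B, PGGHG, TSC22D2 and 12 of the 15 on chromosome 8, for which no start is listed. A further 19 peaks lay inside a gene away from those positions, as at LINC00861, ETS1, the signalling adaptor gene GAB2 and CFTR. The remaining 2 touched no protein-coding or lncRNA gene. One of these was the TRGC2 peak of the gamma locus. The other touched no gene of any kind: it measured 7.06 kb at chr2:231680839-231687899 and ended 18.1 kb before the broad peak of PTMA, the prothymosin alpha gene.

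Broad peaks extended into the gene. Among the 126 broad peaks whose listed starts all belonged to 1 gene, the peak reached a median of 824 bp upstream of the first start and 4007 bp downstream. The 2690 comparison peaks of that kind reached 429 and 951 bp. The downstream arm was the longer in 94.4% of the broad peaks (88.9% to 97.7%) and in 86.7% of the comparison peaks (85.4% to 88.0%). Among peaks with a single start position, a stricter choice made after seeing the data, it was 90.7% of 75 and 85.0% of 2218. KHDRBS1 was an extreme case, with 14 bp upstream and 11305 bp downstream. GATA3, a master transcription factor of T cell development, had 69 and 8797 bp, and BCL11B had 2435 and 11309 bp. TRG-AS1 was spread almost evenly, with 10935 bp upstream and 12841 bp downstream. LOC124901762, in the beta receptor locus, went the other way, with 5819 bp upstream and 391 bp downstream.

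Starts of 2 or more genes lay inside 34.3% of broad peaks and 22.3% of the 1 to 2 kb peaks, and starts of both strands inside 33.7% and 21.0%. In the 2361 peaks between those lengths the shares were 37.0% and 35.8%, no lower than in broad peaks. A longer peak has more room for starts, and these shares were not adjusted for length. The broad peaks touched 341 protein-coding genes, which is 1.7% of the 20033 on these chromosomes. Of the protein-coding genes, 52% had an H3K4me3 peak of any length, and 3.27% of those marked genes had a broad one. The touched genes had a median span of 28.3 kb, against 30.2 kb for marked genes and 24.1 kb for all protein-coding genes. Broad peaks also touched 120 lncRNA genes, 6 snoRNA and 5 tRNA genes, and 3 variable, 12 joining and 2 constant gene segments of the T cell receptor loci.

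Of 32 listed transcription factors of the T lineage, 11 had a broad peak, or 34.4% (18.6% to 53.2%), against 1.7% of all protein-coding genes and 3.27% of marked ones. The lists were drawn up with earlier results of these data known, so their counts describe these peaks and are not independent evidence. The longest were BCL11B (13.7 kb), IKZF2 (9.11 kb) and TCF7 (9.01 kb), the last a factor that acts early in T cell specification. GATA3 had 8.87 kb, IKZF1, which encodes Ikaros, 8.83 kb and LEF1, a partner of beta-catenin, 8.34 kb. ETS1 had 7.32 kb, away from its listed starts. SOX4 (5.47 kb), RUNX3 (4.81 kb), GFI1 (4.73 kb) and TOX (4.64 kb) were shorter. The median longest peak of the marked factors was 3.70 kb, against 1.58 kb over all marked protein-coding genes.

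Receptor and surface genes were under broad peaks in 6 of 36, or 16.7% (6.37% to 32.8%). Over all protein-coding genes the share was 1.7%, and over marked ones 3.27%. CD3D and CD3G, transcribed away from each other, shared 1 peak of 7.16 kb. THEMIS, a regulator of thymocyte selection, had 6.28 kb, CXCR4, a chemokine receptor, 4.26 kb and CD247, the zeta chain, 4.08 kb. CD3E, next to CD3D, had 1.69 kb, LCK 2.25 kb and CD7 2.32 kb, and CD2, CD1A and PTCRA had no H3K4me3 peak. Of the 13 T-lineage markers, 10 had an H3K4me3 peak. Of 5 B-lineage markers only PAX5 had one, of 197 bp, and none of 5 myeloid and 4 erythroid or megakaryocyte markers had any. In these panels the markers of the labelled lineage were thus marked by H3K4me3, apart from CD2, CD1A and PTCRA. Those of the other blood lineages were at or near 0 in the same panels. In longer lists, 3 of 15 B-lineage, 1 of 16 myeloid and 1 of 13 erythroid and megakaryocyte markers had an H3K4me3 peak.

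Of 23 T-ALL transcription factor oncogenes, 5 had any H3K4me3 peak, against 52% of all protein-coding genes. A broad peak touched 2 of the 23, or 8.70% (1.07% to 28.0%): TLX1, and MYC, the growth regulator, with 6.37 kb. That interval includes the 1.7% of all protein-coding genes and the 3.27% of marked ones. Of 28 T-ALL tumour suppressors, 6 had a broad peak, or 21.43% (8.296% to 40.95%), against the same shares. Of these, BCL11B, LEF1 and GATA3 also stand among the T cell factors. CDKN1B and WT1, a zinc finger factor (6.99 kb), were among the others.

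Kinase and cytokine signalling genes were touched in 9 of 30, or 30.0% (14.7% to 49.4%). For this list and those that follow, the shares to compare are 1.7% of all protein-coding genes and 3.27% of marked ones. The longest after PTP4A2 were CISH (9.08 kb), an inhibitor of cytokine signalling, PIM1 (6.06 kb), a kinase induced by STAT5, and the survival gene BCL2 (5.46 kb). BCL2L1 had 4.75 kb and SOCS1, another cytokine signalling inhibitor, 4.73 kb. PTP4A3 (4.13 kb), SOCS2 (4.07 kb) and IL2RG, the common gamma chain of cytokine receptors (4.20 kb), were the others. Splicing factors, the proteins that choose exons, were touched in 9 of 24 or 37.5% (18.8% to 59.4%). They were led by KHDRBS1, HNRNPA2B1 (8.46 kb), HNRNPA1 (6.34 kb), TRA2B (6.25 kb), SRSF3 (5.21 kb) and SRSF2 (4.78 kb), with HNRNPK, HNRNPU and HNRNPL between 4.36 and 4.58 kb. Chromatin regulators had 6 of 35, led by RAD21, ARID2, SETD1B (7.38 kb), STAG2 (4.56 kb), KMT2A (4.29 kb) and ARID1A (4.19 kb). Housekeeping genes had 4 of 30, ENO1, HSPA8, YWHAZ and PGK1. Cell cycle and replication genes had 3 of 32, CDK6, CCND3 and RRM2. An H3K4me3 peak of any length touched 31 of the 32, against 52% of all protein-coding genes. Of 8 blood microRNA host genes, MIR142HG and MIR181A1HG (8.02 kb) had a broad peak. No broad peak touched any of 15 B-lineage, 16 myeloid, 13 erythroid and megakaryocyte or 19 liver, neuron and muscle markers. Their intervals reached from 0% to 21.8%, 20.6%, 24.7% and 17.7%, and so include both shares to compare. An H3K4me3 peak of any length touched 3, 1, 1 and 2 of them.

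**Figure D2:**
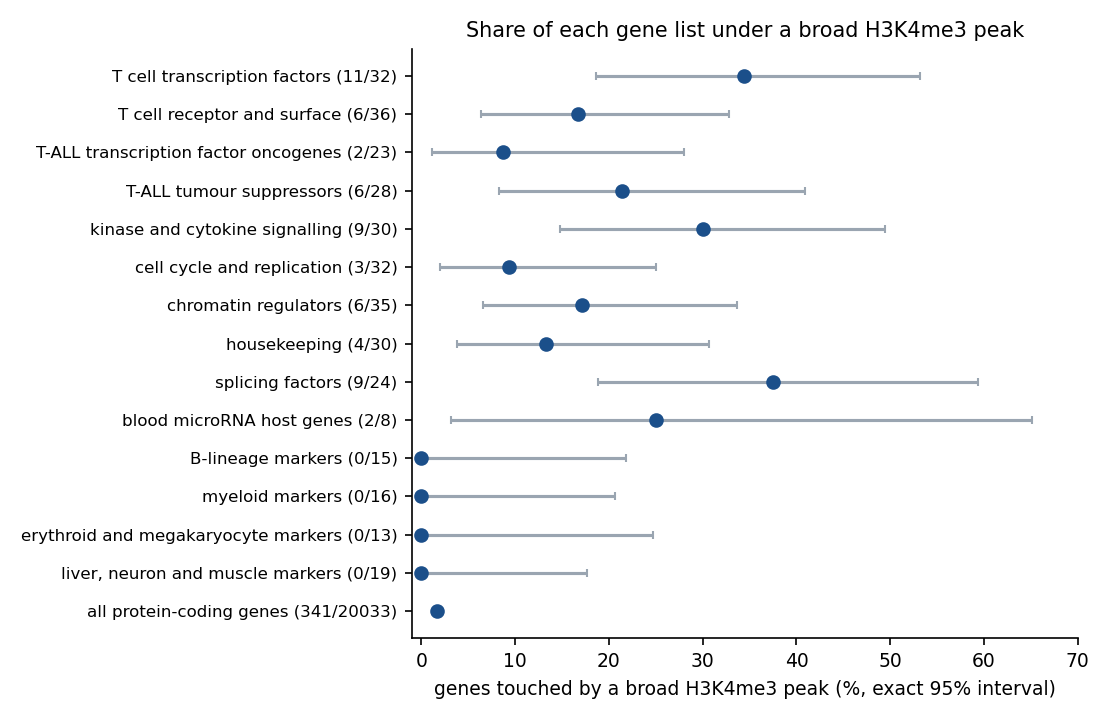
Percent of each gene list touched by a broad H3K4me3 peak (points) with exact 95% intervals (lines); the numbers of touched and found genes stand in brackets. Splicing factors (37.5%) and T cell transcription factors (34.4%) stand highest, the 4 lists of other lineages at 0 and all protein-coding genes at 1.7%. The intervals of those 4 lists include that 1.7%.

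H3K4me1 touched the inside of most broad peaks but covered little of them. Some H3K4me1 lay inside 66.7% (61.0% to 72.0%) of the broad peaks, 46.1% (44.7% to 47.4%) of the 1 to 2 kb peaks and 46.8% of all H3K4me3 peaks. The median broad peak had 6.18% (3.54% to 8.54%) of its length inside H3K4me1 peaks and the median comparison peak 0%. The covered part sat at the ends: the outermost 10% of the length was covered to 28.0% on the left and 24.8% on the right on average, and the 10% just left of the middle to 6.47%. In 1 to 2 kb peaks the same stretches were covered to 21.6%, 21.5% and 6.04%. The midpoint was inside an H3K4me1 peak in 7.33% (4.65% to 10.9%) of broad peaks and 5.94% (5.32% to 6.61%) of comparison peaks, intervals that overlap. Only 2 broad peaks (0.667%) were covered from end to end, against 4.35% (3.82% to 4.94%) of comparison peaks. Of the 2361 peaks between those lengths, 52.8% held some H3K4me1 and 1.14% were covered from end to end. The shares with any and with full cover depend on peak length and were not adjusted for it.

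The 2 fully covered peaks were NFILZ and a peak of 5.84 kb over LINC02295 and LOC105370655, non-coding genes 1094 kb from the broad peak of BCL11B on chromosome 14. Next came PTP4A3, a paralogue of PTP4A2, with 80.1%, BHLHE23 with 66.2%, HEMK1 with 63.4% and LIN28B with 60.3%. At the other end, TLX1, CDKN1B, KHDRBS1, PTP4A2, ARID2 and IKZF2 had no H3K4me1 inside, nor did the longest gamma receptor peak. BCL11B had 18.3%, TCF7 39.1%, RUNX3 32.0% and CD247 37.4%.

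H3K4me1 flanked broad peaks on both sides in a higher share than 1 to 2 kb peaks when every called H3K4me1 peak counted, and not when strong ones alone did. An H3K4me1 peak lay within 2 kb of both edges in 78.0% (72.9% to 82.6%) of broad peaks, 57.9% (56.6% to 59.2%) of 1 to 2 kb peaks and 59.4% of all H3K4me3 peaks. It lay at 1 edge alone in 17.7% and 32.7%, and at neither edge in 4.33% (2.33% to 7.30%) and 9.38% (8.61% to 10.2%). With H3K4me1 peaks of at least 3-fold enrichment the shares with both edges were 10.33% (7.13% to 14.4%) and 10.97% (10.1% to 11.8%), intervals that overlap. By gene direction, the upstream edge had H3K4me1 in 83.3% of broad and 62.6% of comparison peaks, and the downstream edge in 89.7% and 82.2%.

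The 13 broad peaks with H3K4me1 at neither edge included those of NR3C1, the glucocorticoid receptor gene, CDKN2C, which encodes the cell cycle inhibitor p18, DDX3X, HMGA2, ARRDC3, MIR663AHG, SAP30, NIPBL, USP38, USP1, TSC22D2 and ERH. The shorter of the 2 broad peaks of PTP4A2 was the other; the longer one lies 999 bp away. They were named after their values were seen.

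Counting every called H3K4me1 peak, the flanking mark reached farther out beside broad peaks. The share of edges inside H3K4me1 rose to 64.0% at 0.6 kb outside broad peaks and to 54.5% at 0.4 kb outside 1 to 2 kb peaks. At 2 kb it was 54.2% and 18.6%, and at 10 kb 28.2% and 9.47%. Over 5 kb bins, H3K4me1 covered 48.1% of the first bin beside broad peaks and 22.6% of the first beside comparison peaks. Between 45 and 50 kb it covered 16.9% and 8.24%, and between 195 and 200 kb 10.7% and 7.37%. In these 5 kb bins the gap between the classes was wider beside the edge than far from it, while within the first 0.4 kb the classes lay closer, at 45.3% and 38.1% of edges at 0.1 kb and 61.0% and 54.5% at 0.4 kb.

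**Figure D3:**
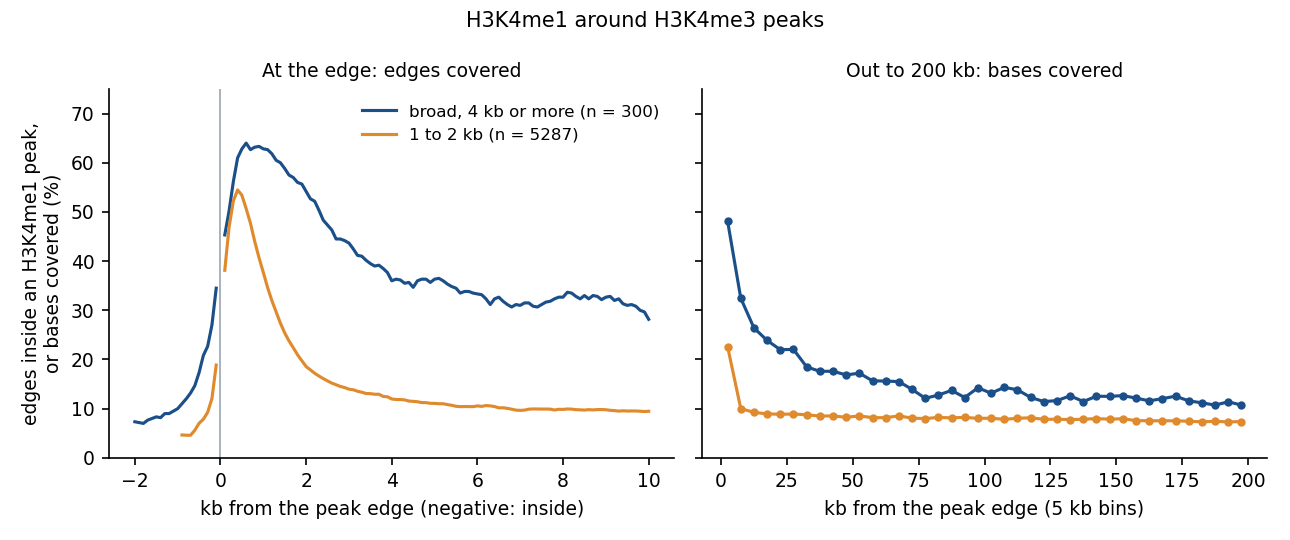
H3K4me1 against the distance from the edge of broad (dark) and 1 to 2 kb (orange) H3K4me3 peaks: left, percent of edges inside an H3K4me1 peak at each distance, both edges pooled, negative values inside the peak up to its middle; right, mean percent of bases covered in 5 kb bins. Both classes peak just outside the edge, at 64.0% and 54.5%, but at 2 kb broad peaks stand at 54.2% and comparison peaks at 18.6%.

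The H3K4me1 load, the length of H3K4me1 peaks in the 50 kb beyond each edge, was higher around broad peaks. Its median was 21.9 kb (17.8 to 24.8 kb) of the 100 kb examined, with quartiles of 9.86 and 33.7 kb. Around 1 to 2 kb peaks it was 6.73 kb (6.46 to 6.94 kb), with quartiles of 2.74 and 14.0 kb. For peaks over a listed start the medians were 20.3 and 6.14 kb, and for the others 32.1 and 9.55 kb. A load of 50 kb or more was found around 9.33% (6.29% to 13.2%) of broad peaks and 0.946% (0.703% to 1.25%) of comparison peaks. The difference remained with the strong H3K4me1 peaks of at least 3-fold enrichment, at 2.67 and 0.752 kb. It also remained with the first 2 kb beyond each edge left out, at 19.7 and 5.26 kb.

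The median load was higher in each longer class from 2 kb on. Its median was 8.97 kb for peaks of 2 to 3 kb, 12.4 kb for 3 to 4 kb, 16.9 kb for 4 to 5 kb, 21.4 kb for 5 to 6 kb, 26.6 kb for 6 to 8 kb and 31.2 kb for 8 kb or more. Below 2 kb there was no such order, with 7.96 kb for peaks under 0.5 kb and 7.06 kb for 0.5 to 1 kb. Among the 300 broad peaks the Spearman rho of length and load was 0.22, and the quartiles of neighbouring length classes overlap. The value is a description, since the peaks share both libraries. In broad peaks with starts of 1 gene, the median load was 13.3 kb beyond the downstream edge and 8.26 kb beyond the upstream edge. In comparison peaks of that kind these were 2.97 and 2.14 kb. Some of the windows are shared, since 47 broad peaks stood within 100 kb of another broad peak.

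**Figure D4:**
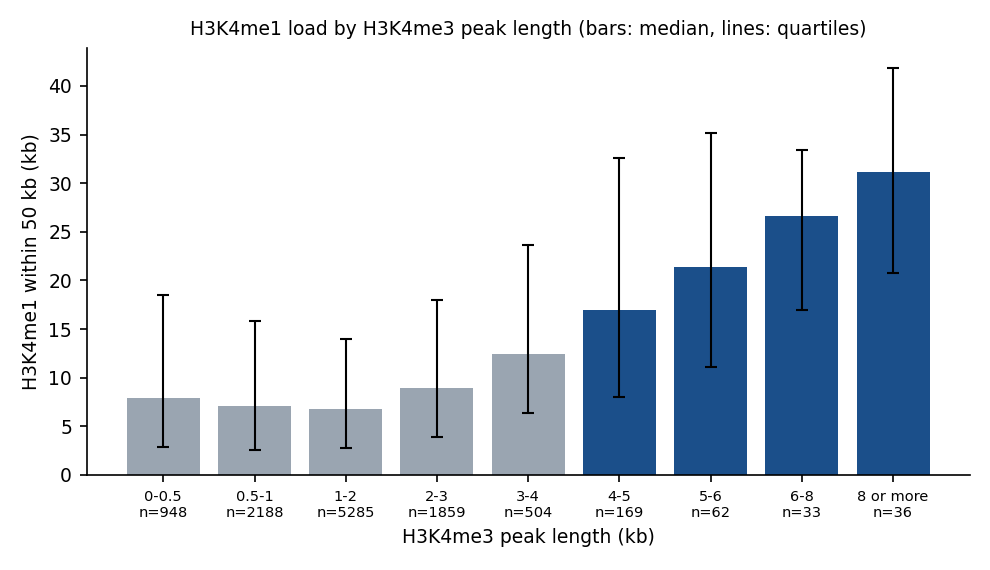
Median H3K4me1 load in kb (bars) with quartiles (lines) by H3K4me3 peak length, with the number of peaks in each class and the broad classes in dark blue. The median rises from 6.73 kb at 1 to 2 kb to 31.2 kb at 8 kb or more, while the quartiles of neighbouring classes overlap.

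The largest loads stood at SEPTIN9, a cytoskeletal gene with a pair of broad peaks (82.5 kb around the shorter of them), at LZTFL1 (81.9 kb), at GAB2, an adaptor of receptor signalling (81.2 kb), at MYO18B (80.6 kb), at EVL (77.7 kb) and at RUNX3 (77.2 kb). The smallest stood at TSC22D2, where no H3K4me1 peak lay within 50 kb, USP38 (0.209 kb), HMGA2 (0.287 kb), NIPBL (0.359 kb), USP1 (0.445 kb) and MIR663AHG (0.651 kb). TLX1 was close to these, with 1.32 kb around a peak of 13.1 kb, and MYC had 2.102 kb. BCL11B had 41.7 kb, of which 40.9 kb lay beyond the downstream edge of the peak and 0.816 kb beyond the upstream edge. IKZF1 had 25.2 kb beyond the upstream edge and 49.5 kb beyond the downstream edge. Distances follow the reference genome, and whether they hold at loci rearranged in ALL-SIL, such as TLX1, was not tested.

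**Figure D5:**
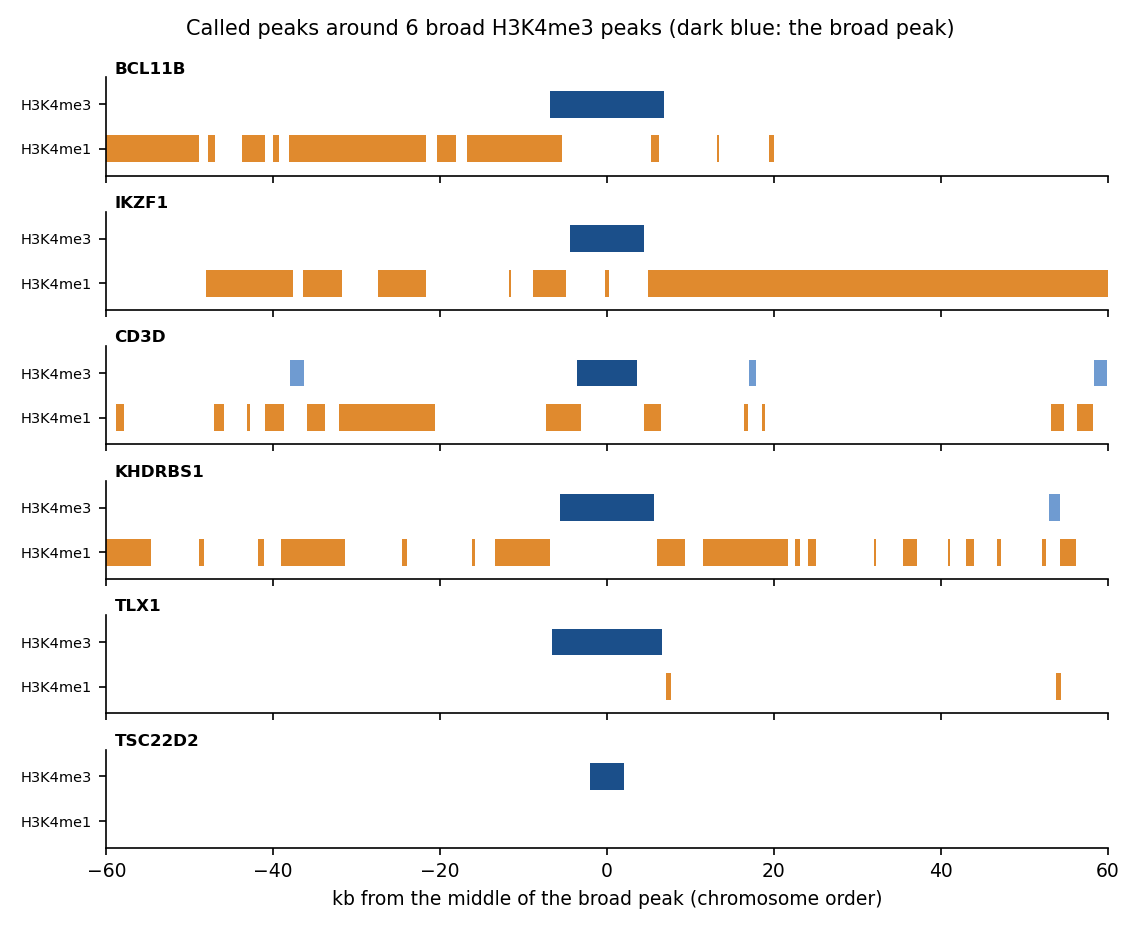
Called H3K4me3 (upper row) and H3K4me1 (lower row) peaks within 60 kb of the middle of 6 broad peaks, to scale, in kb in the order of the chromosome; the broad peak is dark blue. H3K4me1 fills much of 1 side of BCL11B and both sides of IKZF1 (loads of 41.7 and 74.7 kb), while TLX1 and TSC22D2 have almost none (1.32 and 0 kb).

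Gene groups under broad peaks differed in load, a measure the length rule did not use but that was higher in longer classes. The groups also differed in length, and their loads were not adjusted for it. Median lengths were 8.343 kb for T cell transcription factors and 5.205 kb for splicing factors. They were 4.263 kb for receptor and surface genes, 4.749 kb for signalling genes and 5.967 kb for chromatin regulators. The 11 broad peaks of T cell transcription factors had a median load of 41.5 kb, from 13.0 kb at SOX4 to 77.2 kb at RUNX3. TCF7 had 70.6 kb, ETS1 66.1 kb, LEF1 41.5 kb, TOX 37.5 kb, GFI1 32.9 kb, GATA3 25.2 kb and IKZF2 22.6 kb. The 9 broad peaks of splicing factors had a median of 14.4 kb, from 7.08 kb at TRA2B to 38.2 kb at KHDRBS1. Both groups stood against a median of 21.9 kb over all broad peaks, and their ranges overlapped from 13.0 to 38.2 kb. The 5 peaks of receptor and surface genes had a median of 33.4 kb, with 58.1 kb at CD247, 33.4 kb at THEMIS, 32.6 kb at CXCR4 and 24.8 kb at CD3D. The 9 of signalling genes had 40.7 kb, with 59.7 kb at CISH and 51.2 kb at SOCS1, and the 6 of chromatin regulators had 17.2 kb. CDKN1B had 12.8 kb and WT1 27.6 kb.

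The T cell receptor loci carried 5 broad peaks, named after their values were seen: 2 in the gamma locus, 2 in the alpha and delta locus and 1, of 6.21 kb, over TRBC2 and the second joining cluster of the beta locus. None of the 5 had H3K4me1 at both edges. Each had it at exactly 1 edge, while 78.0% of all broad peaks had both. Their loads ranged from 14.5 to 43.4 kb, so H3K4me1 was present nearby. Whether these loci are rearranged in the line was not tested.

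Replication-type histone genes, also grouped after their values were seen, were touched in 16 of 73, against 1.7% of all protein-coding genes and 3.27% of marked ones, by 7 peaks of 4019 to 5604 bp. Of these, 6 lie in the histone clusters of chromosome 6 and 1, over H2AC25 and H2BC26, on chromosome 1. They cover neighbouring short genes, such as H3C4, H2AC7 and H2BC7 under the longest of them. The genes of heterogeneous nuclear ribonucleoproteins were touched in 11 of 26, against the same shares, including HNRNPD, HNRNPDL, HNRNPH1 and HNRNPUL1 beside those named above, with a median load of 13.0 kb. Of 10 ARID genes 5 were touched, against the same shares: ARID1A, ARID2, ARID4A, ARID4B and ARID5B. Several genes carried a pair of broad peaks separated by a short gap, such as RHOH (1149 bp) and ZNF217 (1203 bp), and SEPTIN9 and GSE1 carried pairs 73.4 and 53.1 kb apart. The neighbouring non-coding genes NEAT1 and MALAT1 had 1 broad peak each, 70.7 kb apart.

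Promoters under broad peaks had median CpG contents close to those under 1 to 2 kb peaks, with a larger CpG-poor share. Over single starts, in the window from 250 bases before to 50 after each, the median was 26 CpG at the 503 listed starts inside broad peaks, 27 at the 5997 inside comparison peaks and 14 at all 34942 listed starts. Of these starts 7.16% (5.06% to 9.77%), 1.22% (0.955% to 1.53%) and 33.8% had 5 CpG or fewer. Peaks can hold several starts, so the count was also made per peak. For each peak with a start in the promoter table, the start richest in CpG was taken, a choice made after seeing the data. The median was then 31 CpG in 246 broad peaks and 29 in 3997 comparison peaks, the opposite order to that over single starts. Broad peaks held a median of 2 listed starts and comparison peaks 1, and more starts raise the highest count. At the other end, 4.47% of broad peaks (2.25% to 7.86%) had no start with more than 5 CpG, against 1.10% (0.801% to 1.48%) of comparison peaks. Those 11 peaks were the ones of MIR181A1HG, CD3D, TRD-AS1, EVL, CHD2, SAMSN1, THEMIS, TRG-AS1, GIMAP7, IL2RG and HCFC1-AS1. The CD3D sequence printed above is 1 of them. The IKZF2 start printed above is not counted, because a richer start lies in the same peak.

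Letters of known promoter motifs were searched on both strands in the window of the CpG-richest start of each peak; no motif searched contains another. The ETS motif CCGGAAG stood in 13.4% (9.42% to 18.3%) of broad and 27.6% (26.2% to 29.0%) of comparison windows. Over single starts the shares were 11.5% inside broad peaks, 26.7% inside comparison peaks and 10.2% of all listed ones. The TATA box, searched as TATAAA, stood in 9.35% (6.02% to 13.7%) of broad and 2.98% (2.47% to 3.55%) of comparison windows. Over single starts the shares were 8.55%, 3.20% and 11.6%. The 23 broad peaks with a TATA box included 5 at histone genes and those of TCF7, CXCR4, BCL2L1, EVL, GIMAP7 and IL2RG. For the other motifs the broad and comparison intervals overlapped: 6.91% and 7.61% for the RUNX motif TGTGGT, 4.07% and 3.23% for the GATA factor motif AGATAA, 12.2% and 11.1% for the E-box of MYC, CACGTG, 40.7% and 36.0% for the CCAAT box, searched as CCAAT, and 6.50% and 7.23% for the TCF/LEF motif CTTTGA. Over all listed starts these 5 stood in 13.1%, 10.4%, 7.23%, 34.6% and 12.9%. A match of letters is a description of the sequence and not a bound site.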

How the data were processed

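Broad peaks of each mark were called against the input by MACS2 2.1.0.20150731, with q limits of 0.1 for broad and 0.05 for strong regions, per the file headers. Those headers also name STAR in the paths of the aligned reads; no aligner settings are stated there. After filtering, 30823016 H3K4me3, 34813455 H3K4me1 and 18859011 input tags remained, per the file headers. For each peak the deposited tables give a length in whole bases and, as means over the region made by the authors' caller, a pileup (coverage signal), a fold enrichment (ratio) and −log10 values of p and q. These were used only to describe or filter peaks. Positions count from 1, on GRCh38. The deposited interval lists repeat these peaks and were not used.

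Genes were RefSeq spans of GRCh38.p14, touched from 1 bp. Starts came from a RefSeq promoter table that lists 79.1% of protein-coding and 62.6% of lncRNA genes and none on chromosome 8. Outside the CpG and motif counts, the 5′ end of the span of those genes also counted as a listed start. For genes without a listed start, either end counted and was reported separately. Overlaps were computed in Python 3.11.15 with numpy 2.4.6, pandas 2.3.3 and scipy 1.17.1, and tested on simulated intervals. The members, 14 gene lists (all 331 genes found), motifs and named-gene rule were chosen with earlier results of these data known, and values of the H3K4me3 library that chose the members are descriptions. Named genes are those of the 20 longest peaks, list genes under a broad peak, peaks at the length limit, and extremes of load, covered share and pileup; genes named otherwise were chosen after their values were seen, and a few genes that the rule names are not reported here. Alternatives varied the length limits, merging, H3K4me1 strength and windows. Each mark has 1 library, so precision is that of counting peaks, and no replicate error is known.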

Additional observations from a re-analysis of the deposited data

How the results depend on the processing

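The load was higher around broad than comparison peaks in 13 of 13 alternatives, the share with H3K4me1 at both edges in 11 of 13, and the median covered share in 8 of 10. The length limits change the broad peaks alone and the comparison lengths the comparison peaks alone; every other setting was applied to both. Where H3K4me1 peaks of at least 3-fold enrichment counted, the median covered share of broad peaks was 0%, both edges were flanked in 10.33% of broad and 10.97% of comparison peaks, and the loads were 2.674 and 0.752 kb. With a −log10 q of at least 5 for H3K4me1 these were 0%, 5.333% and 6.771%, and 0.233 and 0 kb. The interval of that broad load, 0 to 0.653 kb, includes the comparison value, so this alternative is higher by its median alone. Fewer H3K4me1 peaks are counted by construction in both settings.

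A length limit of 3000 bp gave 804 broad peaks, 2.282% covered and a load of 14.89 kb, and 5000 bp gave 131 peaks. Keeping H3K4me3 peaks whose −log10 q reached 10 left 137 broad peaks, 77.37% over a listed start, with a ratio of broad to comparison pileup of 0.8701, against 1.025 as reported, and both edges flanked in 60.09% of comparison peaks. Without chromosome 8, 87.37% of broad and 79.37% of comparison peaks lay over a listed start. Comparison peaks of 1500 to 2000 bp had both edges flanked in 62.94% and a load of 7.148 kb. Those of 2000 to 4000 bp had 69.70%, 9.679 kb and 0.8705% covered, and those over a start 56.50% and 6.139 kb. Both edges were flanked in 65.0% and 54.87% within 1 kb, 85.67% and 61.57% within 5 kb, and 59.0% and 30.47% with at least 500 bp of the window. Loads were 12.52 and 3.214 kb within 20 kb and 34.40 and 12.88 kb within 100 kb. With the first 2 kb left out the comparison load was 5.256 kb. Merging changed none of these beyond their intervals. No paired analysis was possible because each mark has 1 library. Peak calls limit every value, since H3K4me1 under the calling threshold counts as none.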
